A study of Mus musculus with 82 samples.

Results

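Binding of Eomes-GFP was compared with binding of Brachyury-GFP in mouse embryoid bodies, through 1 deposited peak list for each protein. There were 30129 EoGFP peaks and 27588 BraGFP peaks, of 132113 in the 4 lists used from the series. Members were found by counting, for each of 21887 coding genes, the midpoints of EoGFP and of BraGFP peaks within 50 kb of the gene. A gene was called dominated by a factor when that factor had at least 5 midpoints and at least 4 times those of the other, with 0 allowed for the other. This gave 1126 genes, 900 dominated by EoGFP and 226 by BraGFP.

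The series has 82 samples on how Eomes and Brachyury direct mouse embryonic stem cells into mesoderm and endoderm, and 4 of them, 2 per protein, stand behind these lists. Both groups were A2lox.Cre mouse embryonic stem cells with a knockout of Eomes and of Brachyury (dKO), grown as embryoid bodies and taken on day 5. Both received activin A at 30 ng/ml, an activator of Nodal-type signalling, and doxycycline (dox) at 5 µg/ml from day 2 on. One group carried dox-inducible EoGFP and the other dox-inducible BraGFP, and chromatin was pulled down with the same anti-GFP antibody. The binding protein was therefore a tagged, induced copy in cells without the native genes, and how many clones were used is not given in the sources used here. Uninduced libraries and inputs were not analysed here. EoV5 (Eomes with a V5 tag) and EoVP16 (Eomes joined to the VP16 activation domain), 1 library each from dox-treated cells of the same knockout on the same day, both pulled down with an anti-V5 antibody, served as readouts that the choice of genes did not use.

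Eomes and Brachyury, whose gene is T, belong to the T-box family of transcription factors. They contact DNA through a shared domain that reads a short half-site, GGTGTG at its core. In the gastrulating embryo both are made in the primitive streak. Eomes is known for definitive endoderm and early anterior and cardiac mesoderm, and Brachyury for posterior mesoderm, notochord and axial elongation. A peak list records where the tagged protein was found on chromatin, not whether a gene there responded.

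The lists were kept at different minimum pileups (heights in overlapping fragments), 120 for EoGFP and 40 for BraGFP as the lists are labelled, and library depth is unknown. Median peak width was 871 bp in EoGFP and 587 bp in BraGFP. Because 1 pooled list stands for each protein, there is no replicate spread and no test between the proteins. Intervals are 95% Wilson intervals for shares and Newcombe intervals for differences of shares, and they cover counting error only. A peak below its list's minimum pileup counts as absent, so a count of 0 means no listed peak.

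Promoters at which the lists held a peak of 1 protein are shown first, because they give the sites behind several genes described below. Hoxa2, a homeobox gene of hindbrain patterning, and Msgn1, which encodes a bHLH regulator of presomitic mesoderm, had a BraGFP peak and no EoGFP peak over the promoter. Cyp26a1, which encodes an enzyme that degrades retinoic acid, and Foxa3, a forkhead factor of endoderm, had an EoGFP peak and no BraGFP peak. The stretches are the 250 bases before the annotated start, from RefSeq (GRCm38.p6), written 5′ to 3′ on the gene's strand. Capitals mark the half-site core GGTGTG on either strand, so that CACACC is its other strand.
Hoxa2, chr6:52164832-52165081, minus strand: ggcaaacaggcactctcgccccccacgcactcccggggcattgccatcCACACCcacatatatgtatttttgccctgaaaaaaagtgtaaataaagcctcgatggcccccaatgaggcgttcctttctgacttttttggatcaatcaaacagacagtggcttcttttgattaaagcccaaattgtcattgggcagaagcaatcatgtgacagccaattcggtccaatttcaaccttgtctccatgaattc
Msgn1, chr12:11208949-11209198, minus strand: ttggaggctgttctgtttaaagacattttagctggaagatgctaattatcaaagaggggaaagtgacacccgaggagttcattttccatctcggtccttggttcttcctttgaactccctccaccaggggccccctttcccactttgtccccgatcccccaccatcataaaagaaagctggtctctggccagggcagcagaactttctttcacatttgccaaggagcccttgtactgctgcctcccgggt
Cyp26a1, chr19:37697558-37697807, plus strand: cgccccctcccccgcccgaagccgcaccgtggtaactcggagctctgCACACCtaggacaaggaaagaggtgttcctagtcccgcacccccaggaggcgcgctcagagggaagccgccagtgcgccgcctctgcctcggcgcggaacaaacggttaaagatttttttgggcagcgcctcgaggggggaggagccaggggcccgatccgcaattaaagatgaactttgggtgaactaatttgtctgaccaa
Foxa3, chr7:19023540-19023789, minus strand: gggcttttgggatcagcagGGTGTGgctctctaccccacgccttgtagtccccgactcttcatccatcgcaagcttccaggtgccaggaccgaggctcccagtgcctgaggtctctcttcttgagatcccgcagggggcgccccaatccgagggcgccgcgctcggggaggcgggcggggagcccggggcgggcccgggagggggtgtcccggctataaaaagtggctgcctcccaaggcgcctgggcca
The BraGFP peak at Hoxa2 ran from 52163801 to 52166125 and was 2325 bp wide, and the one at Msgn1 was 1820 bp wide (11208402 to 11210221). The EoGFP peak at Cyp26a1 was 973 bp wide (37697572 to 37698544) and the one at Foxa3 2341 bp wide (19023025 to 19025365). EoV5 peaks overlapped the Hoxa2 and Foxa3 promoters, and EoVP16 peaks the Cyp26a1 and Foxa3 promoters. Each of Hoxa2, Cyp26a1 and Foxa3 held 1 match to GGTGTG in these bases, and Msgn1 held 0. The peaks are longer than the stretches, so a match is no called site and its absence says nothing of binding.

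Genes dominated by EoGFP were about 4 times as many as genes dominated by BraGFP. Of all coding genes, 4.11% were EoGFP-dominated and 1.03% BraGFP-dominated. The mean gene had 3.02 EoGFP and 2.35 BraGFP peaks within 50 kb, and the medians were 3 and 2. Neighbouring genes share peaks: joined where their 50 kb windows touch, the EoGFP-dominated genes formed 418 loci and the BraGFP-dominated genes 155. The largest BraGFP-dominated locus held 18 genes, the tandem interferon genes Ifnz, Ifna6, Ifna7, Ifna11 and 14 predicted genes of the same stretch of chromosome 4. These are close copies, among which reads may not be placed with certainty.

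The ratio of the 2 groups depended on how peaks were assigned. In a window of 10 kb, 139 genes were EoGFP-dominated and 113 BraGFP-dominated, and with each peak given only to its nearest coding gene, 128 and 120. At the edge of the rule, 304 genes had 5 EoGFP peaks and 1 BraGFP peak and were called, while 438 with 4 and 1 and 163 with 4 and 0 were not. For BraGFP, 82 genes with 5 peaks against 1 were called, and 139 with 4 against 1 and 46 with 4 against 0 were not.

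**Figure D1:**
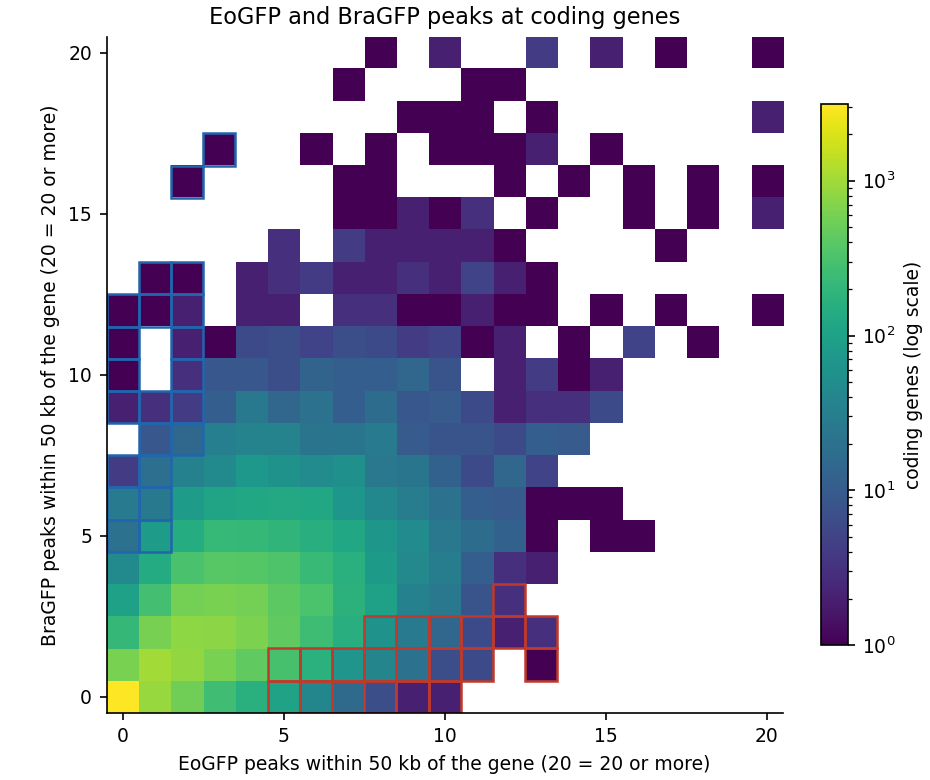
Number of coding genes (colour, log scale) by EoGFP peaks (x axis) and BraGFP peaks (y axis) within 50 kb, with counts of 20 or more joined at 20. Red outlines mark EoGFP-dominated cells (900 genes) and blue outlines BraGFP-dominated cells (226 genes), and most genes lie in the lower left with few peaks of either protein.

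Among genes of the primitive streak, 4 of 16 listed members (25%) were EoGFP-dominated, against 4.11% of all genes, and 0 were BraGFP-dominated. Foxh1, the DNA-binding partner of Smad proteins in Nodal signalling, had 9 EoGFP peaks and 1 BraGFP peak within 50 kb, with 9 EoV5 and 10 EoVP16 peaks. The single BraGFP peak at Foxh1 overlapped the EoGFP peak 41.8 kb from the gene, and the other 8 EoGFP peaks stood alone, among them 1 of 3634 bp across the gene (chr15:76666836-76670469). Wnt3a, a Wnt ligand of the streak and tailbud, had 9 EoGFP and 2 BraGFP peaks. Mixl1, a homeobox factor of endoderm and mesoderm formation, had 5 and 0, and Sp5, a zinc-finger factor downstream of Wnt signalling, 5 and 1. Over the whole list the median was 5 EoGFP and 2 BraGFP peaks, and 13 of 16 members had more EoGFP than BraGFP peaks, against 47.1% of all coding genes. The calls depended on the window: 0 of the 16 were EoGFP-dominated within 10 kb and 2 within 100 kb, where Sp5 alone of these 4 kept the call.

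Genes of the factors that the study expressed in the double knockout were also described one by one. Eomes had 6 EoGFP and 4 BraGFP peaks, T had 4 and 5, Mesp1, a bHLH factor of cardiac mesoderm, had 8 and 4, the endoderm and notochord regulator Foxa2 had 6 and 2, and Msgn1 had 2 and 6. None of these 5 met the rule. Mixl1 did, and so did Six2, a homeobox gene of kidney progenitors, with 6 EoGFP peaks and 1 BraGFP peak. Six2 forms 1 locus with Six3, and the EoGFP peaks 46.3, 48.2 and 49.8 kb from Six2 overlap Six3. Within 10 kb Six2 had 2 EoGFP peaks and 1 BraGFP peak. Msgn1 alone among the 7 had at least 3 times as many BraGFP as EoGFP peaks. Both of its EoGFP peaks overlapped BraGFP peaks, 30.4 and 23.6 kb from the gene, and the BraGFP peak at the gene itself was unshared. At Mesp1 the opposite held at the gene: the EoGFP peak across it was unshared, while 3 of its 4 BraGFP peaks overlapped EoGFP peaks.

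Signalling and lineage genes with an excess of EoGFP peaks came from several lists, some with shares near that of all genes. In the retinoic acid list, Cyp26a1 and its neighbour Cyp26c1, both of which encode retinoic acid hydroxylases, shared the same 8 EoGFP peaks and 1 BraGFP peak. Of the 8 EoGFP peaks around Cyp26a1, 1 overlapped the BraGFP peak, 40.9 kb from the gene, and the remaining 7 were unshared. In the Wnt list (median 6 EoGFP and 3 BraGFP), Wnt3a, Wnt8a, Sp5 and Tcf7, 4 of 20, were EoGFP-dominated, none of them within 10 kb and Sp5 alone within 100 kb, with 6 against 1 at Wnt8a, another streak ligand, and 5 against 1 at Tcf7, a nuclear effector of the pathway. Chrd, the secreted BMP antagonist of the node, had 7 and 1, and Hand1, a bHLH factor of cardiac and extraembryonic mesoderm, had 5 and 1. Smarcd3, a cardiac subunit of the BAF chromatin remodeller, had 7 and 1, and Maml1, a Notch coactivator, had 6 and 1.

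Neural and trophoblast genes were in the same group. Of 20 neural plate genes, 4 were EoGFP-dominated (20%, against 4.11% of all genes): Sox1 (6 EoGFP, 0 BraGFP), Six3 (6 and 1), Lhx5 (5 and 0) and Nes (10 and 2), the first 3 encoding transcription factors and Nes an intermediate filament of neural progenitors. Of 14 trophoblast genes, 4 were EoGFP-dominated (28.6%): Krt7, a simple-epithelium keratin, with 8 and 0, Gata3 with 7 and 1, Ascl2 with 5 and 0, and Hand1. The 8 EoGFP peaks of Krt7 lay from inside the gene to 49.8 kb away. Foxa3 had 5 and 0, and among blood and muscle genes Runx1, a haematopoietic factor, had 10 and 2 and Ryr1, a calcium release channel of muscle, 6 and 1. Each was the 1 EoGFP-dominated gene of a list of 16 (6.25%). Within 10 kb, 0 neural plate genes and 1 trophoblast gene (Gata3) were EoGFP-dominated. Within 100 kb, Sox1, Six3 and Lhx5 kept the call, and each of the 4 trophoblast genes lost it. The lists were chosen with earlier results of these data known, so their counts are a description.

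**Figure D2:**
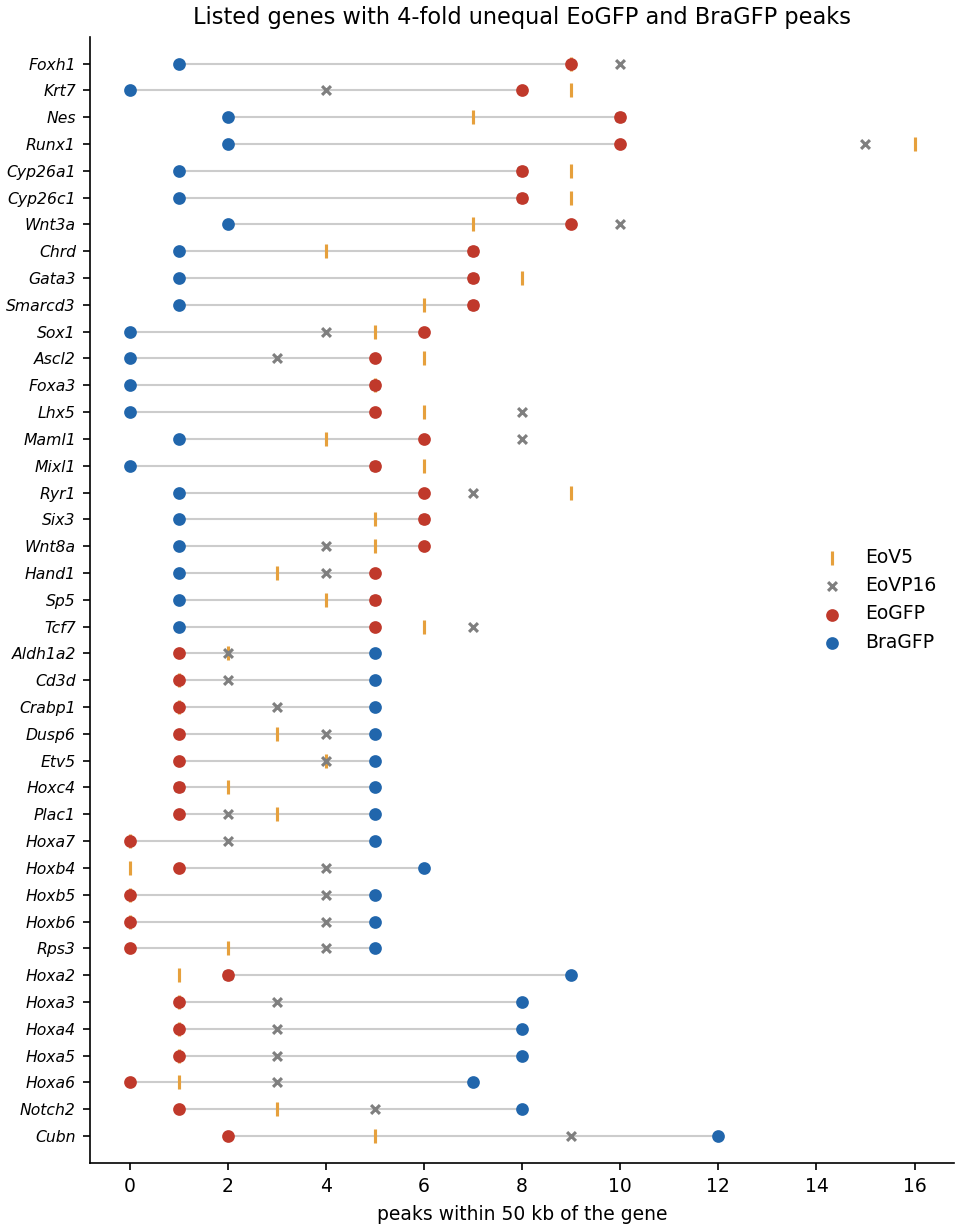
Peaks within 50 kb (x axis) of each listed gene called dominated (y axis), with red points for EoGFP, blue points for BraGFP, orange bars for EoV5 and grey crosses for EoVP16 (a mark hidden behind a point has the same count). Foxh1, Krt7, Nes and Runx1 share the widest EoGFP excess, 8 peaks, and Cubn has the widest BraGFP excess, 12 against 2, and most orange bars of the upper genes lie near the red points.

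The EoGFP-dominated loci with the largest differences lay outside these lists. Rbfox3, a neuronal splicing factor gene of 422 kb, had 13 EoGFP peaks and 1 BraGFP peak. Gnai2, an inhibitory G protein subunit, Sptbn4, a spectrin of axons, and Prkcb, a protein kinase C, had 13 and 2 each. Then came Rras, a small GTPase, Ezh1, a histone methyltransferase of Polycomb complex 2, Rnf213, a ubiquitin ligase, Dnajc18, a DnaJ-type chaperone, and AI661453, each with 11 and 1. Ltbp2, a latent TGF-beta binding protein family member, had 10 and 0, and the EoV5 and EoVP16 lists held 10 and 9 peaks there. At Sptbn4 the EoV5 count was 5 and the EoVP16 count 17, the widest disagreement between the other Eomes lists among these 10 genes, and at Prkcb it was 15 and 7 in the other direction.

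BraGFP-dominated genes were headed by long genes and by the Hox clusters. Unc5c, a netrin receptor gene of 369 kb, had 16 BraGFP and 2 EoGFP peaks, and Tnik, a kinase of the Wnt pathway with a gene of 409 kb, had 17 and 3. Slco3a1, an organic anion transporter, had 13 and 1, Cubn, an endocytic receptor, 12 and 2, and Limch1, an actin-associated protein, 12 and 2. On the X chromosome, Nhsl2 had 11 and 0 and Mid1, a ubiquitin ligase of midline development, 9 and 0, and on chromosome 15 Adamts20, a secreted metalloprotease, had 9 and 0. The other Eomes lists were not empty at Mid1, with 6 EoV5 and 11 EoVP16 peaks. In the same order they held 5 and 9 at Cubn, 5 and 7 at Tnik, and 1 and 4 at Unc5c. Counts were 2 and 1 at Slco3a1, 2 and 4 at Limch1, 0 and 5 at Nhsl2, and 2 and 2 at Adamts20. The median span of BraGFP-dominated genes was 40.6 kb (quartiles 6.29 to 122.9), against 15.5 kb (7.08 to 34.3) for EoGFP-dominated genes and 17.2 kb for all. Of the BraGFP-dominated genes 31.4% were longer than 100 kb, of the EoGFP-dominated 6.67% and of all 11.1%, and a longer gene has a wider window. The part of gene length in these calls was not tested.

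A pair of BraGFP-dominated loci of predicted genes is less certain. Gm3448 had 12 BraGFP and 0 EoGFP peaks, in a stretch of chromosome 17 with Gm3435 and Gm3417, members of the same Tcte3 gene family. Gm40363 on chromosome 6 had 10 BraGFP and 0 EoGFP peaks, while the EoV5 and EoVP16 lists held 12 and 17 there. How reads that match several gene copies were placed is not given in the sources used here.

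Hox genes were the listed group with the most BraGFP-dominated members. Of 39 Hox genes, 10 were BraGFP-dominated (25.6%, against 1.03% of all genes) and 0 EoGFP-dominated, and the median was 4 BraGFP and 1 EoGFP peak. The count was 2 within 10 kb (Hoxa3 and Hoxb3) and 5 within 100 kb (Hoxa7, Hoxa9, Hoxa10, Hoxa11 and Hoxa13). More BraGFP than EoGFP peaks were counted at 25 of the 39, or 64.1%, against 24.0% of all coding genes. The 10 genes are 3 loci, because neighbours share peaks: Hoxa2 to Hoxa7, Hoxb4 to Hoxb6, and Hoxc4. Hoxa2 had 9 BraGFP and 2 EoGFP peaks, Hoxa3, Hoxa4 and Hoxa5 had 8 and 1 each, Hoxa6 had 7 and 0 and Hoxa7 5 and 0. Hoxb4 had 6 and 1, Hoxb5 and Hoxb6 5 and 0 each, and Hoxc4 5 and 1.

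From Hoxa2 to Hoxa13 on chromosome 6 there were 6 BraGFP peaks, all unshared, and 0 EoGFP peaks. The BraGFP peaks lay beside Hoxa2 (2325 bp wide), at 3 places in the Hoxa3 gene (583, 788 and 1712 bp), in Hoxa4 (1159 bp) and in Hoxa5 (1144 bp), and none lay at the genes from Hoxa6 to Hoxa13. The EoV5 list held 1 peak in the same stretch, at Hoxa2, with a pileup of 78 fragments. The EoVP16 list held 1 in Hoxa3, with a pileup of 47 fragments, and 1 beside Hoxa9, 1.34 kb from the gene, with a pileup of 44.

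The other clusters differed among themselves. HoxB (174 kb) held 5 BraGFP midpoints and 1 EoGFP midpoint, with 4 of the 5 inside the Hoxb3 gene and 1 beside Hoxb2, and the EoGFP peak 6.99 kb from Hoxb13. HoxC held 0 of either, and its BraGFP peaks lay in the 50 kb flanks, which held 5 against 2 EoGFP peaks. HoxD held 6 BraGFP and 5 EoGFP midpoints. With EoV5 in place of EoGFP 10 Hox genes met the rule, though not the same 10. Hoxc4, with 5 BraGFP and 2 EoV5 peaks, lost the call. With EoVP16 in place of EoGFP 2 Hox genes met the rule. The EoVP16 list held 5 peaks inside HoxB and 7 inside HoxD.

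Outside the Hox clusters, listed genes with an excess of BraGFP peaks were few. Dusp6, an ERK phosphatase, and Etv5, an ETS factor, are both induced by FGF signalling, and each had 5 BraGFP peaks and 1 EoGFP peak. The other Eomes lists were closer to BraGFP there, with 3 EoV5 and 4 EoVP16 peaks at Dusp6 and 4 of each at Etv5. At both genes the EoGFP peak was wide, 4614 bp at Dusp6 and 2721 bp at Etv5, and overlapped BraGFP in or beside the gene. Over the 18 FGF and ERK feedback genes, 2 were BraGFP-dominated (11.1%, against 1.03% of all genes), 0 EoGFP-dominated, and both medians were 4. Notch2, a Notch receptor gene of 137 kb, had 8 and 1, with 3 EoV5 and 5 EoVP16 peaks. In the retinoic acid list, Aldh1a2, which encodes the enzyme that makes retinoic acid in the embryo, and Crabp1, a retinoic acid binding protein, had 5 and 1 each. The list had no common direction: Crabp2, another binding protein, had 3 BraGFP and 11 EoGFP peaks, Aldh1a3 2 and 3 and Aldh1a1 1 and 1. Within 100 kb Aldh1a2 and Dusp6 kept the call, and Etv5, Crabp1 and Notch2 lost it. Within 10 kb Notch2, with 7 BraGFP peaks and 1 EoGFP peak, kept it, and Aldh1a2, Dusp6, Etv5 and Crabp1 lost it.

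At Aldh1a2 the single EoGFP peak, 600 bp wide inside the gene, overlapped a BraGFP peak of 600 bp, and the other 4 BraGFP peaks were unshared. At Crabp1 the EoGFP peak lay 43.4 kb away and 2 unshared BraGFP peaks lay in the gene. EoV5 and EoVP16 counts were 2 and 2 at Aldh1a2 and 1 and 3 at Crabp1. Plac1, an X-linked placental gene, Rps3, a ribosomal protein, and Cd3d, a T cell receptor subunit, also met the rule, with 5 BraGFP peaks against 1, 0 and 1. EoV5 and EoVP16 counts were 3 and 2 at Plac1, 2 and 4 at Rps3, and 1 and 2 at Cd3d. Rps3 had 8 EoGFP and 8 BraGFP peaks within 100 kb.

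**Figure D3:**
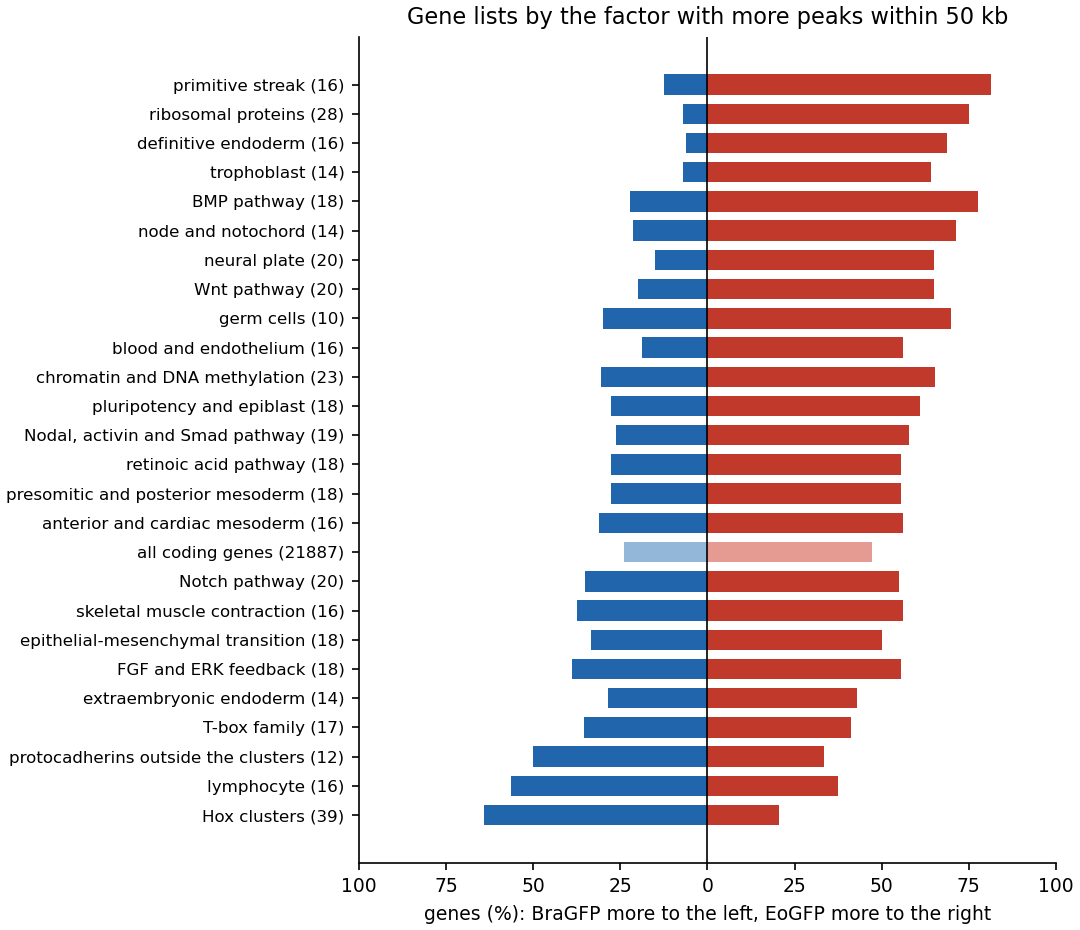
Share of each list's genes with more BraGFP peaks (blue, to the left) or more EoGFP peaks (red, to the right) within 50 kb, with list sizes in brackets and all 21887 coding genes in pale colours. Primitive streak genes (more EoGFP at 13 and more BraGFP at 2 of 16) and Hox genes (20.5% and 64.1%) stand at opposite ends, with all coding genes at 47.1% and 24.0%.

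Most of the remaining lists leaned to EoGFP, as all coding genes did. Definitive endoderm genes had more EoGFP peaks at 11 of 16 and more BraGFP at 1, with medians of 3.5 and 1. BMP pathway genes had more EoGFP peaks at 14 of 18 and ribosomal protein genes, a list with no role in gastrulation, at 21 of 28. T-box genes were near even, with 7 of 17 above in EoGFP and 6 in BraGFP. Protocadherins outside the clusters and lymphocyte genes leaned to BraGFP, at 6 of 12 and 9 of 16. A list unrelated to the tissue therefore lay on each side.

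Some genes shorter than 100 kb carried many peaks of both proteins in near-equal number. Nxf1, the mRNA export receptor, had 11 of each, and Msi1, an RNA-binding protein of neural progenitors, had 10 of each. LOC666331 (10 EoGFP, 11 BraGFP) and Rdm1 (10 and 9) lie side by side on chromosome 11 and share peaks, and Uhrf1bp1 had 10 and 9. In all, 1819 genes had at least 5 peaks of both. Across the 21887 genes Spearman's rho between EoGFP and BraGFP counts was 0.61, against 0.83 between EoGFP and EoV5 and 0.85 between EoGFP and EoVP16. These are descriptions over genes that share length, neighbours and peaks, and they carry no test.

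The other Eomes lists differed between the 2 groups of genes in the direction of the EoGFP counts. EoV5 had a median of 5 peaks at EoGFP-dominated genes, 2 at BraGFP-dominated genes and 3 at all genes. EoVP16 had medians of 6, 3 and 3. Each of the 900 EoGFP-dominated genes had an EoV5 peak, while 35 of the 226 BraGFP-dominated genes (15.5%) and 17.0% of all genes had none. EoVP16 peaks were missing at 1 of the 900, 8 of the 226 (3.54%) and 15.8% of all. BraGFP-dominated genes, which are longer, thus lacked an EoVP16 peak less often than all genes did, although their EoGFP median was 1. The rule gives EoGFP-dominated genes at least 5 EoGFP peaks, so all genes are an unlike comparison. Of the 1819 genes with at least 5 peaks of both proteins, 0 lacked an EoV5 peak and 0 an EoVP16 peak. Their medians were 7 EoV5 and 8 EoVP16 peaks.

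At promoters, peaks of EoGFP alone were far more common than peaks of BraGFP alone. Of 17492 genes with a RefSeq promoter entry (250 bases before to 50 after a start), 23.1% had an EoGFP peak and no BraGFP peak over a promoter, 2.78% a BraGFP peak and no EoGFP peak, and 19.0% both. This comparison was added after the lists were seen. EoV5 peaks overlapped 57.0% of the EoGFP-only promoters (55.4 to 58.5), 42.7% of the BraGFP-only promoters (38.4 to 47.1), 81.3% of those with both and 4.32% of those with neither. EoVP16 peaks overlapped 3833 of the 4034 EoGFP-only and 362 of the 487 BraGFP-only promoters (74.3%), 98.5% of those with both and 17.9% of those with neither. Most BraGFP-only promoters thus had an EoVP16 peak.

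Of 285 listed genes with a promoter entry, 59 had EoGFP alone (20.7%), 18 BraGFP alone (6.32%) and 56 both (19.6%), so that the shares with EoGFP alone and with both were near those of all genes. EoGFP-only promoters included Mesp1, Otx2, a homeobox factor of anterior neural tissue, Cer1, a secreted antagonist of Nodal and BMP, Cxcr4, a chemokine receptor of endoderm, Lef1, a Wnt effector, and Snai1, a repressor in epithelial-mesenchymal transition. BraGFP-only promoters included Msgn1, Hoxa2, Hoxa5, Pdgfra, a growth factor receptor of mesoderm, Mef2c, a cardiac factor, and Tcf7l1, a repressor of Wnt targets. Promoters with both included Foxa2, Lhx1, Mesp2, Ripply2, Dll1 and Dusp6, genes of the streak, endoderm and segmentation apart from Dusp6. These names were picked after their values were seen, and the classes also held unrelated genes. Ribosomal protein genes had EoGFP alone at 8 and BraGFP alone at 2 of 19 promoters. Presomitic and posterior mesoderm genes had 3 and 2 of 14, and anterior and cardiac mesoderm genes 1 and 2 of 11.

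Promoters lie inside the windows whose peak counts chose the dominated genes, so their EoGFP and BraGFP peaks are given as a description only. EoGFP peaks overlapped the promoters of 60.8% of EoGFP-dominated genes (57.1 to 64.3), 18.3% of BraGFP-dominated genes (13.3 to 24.7) and 42.1% of all. BraGFP peaks overlapped 12.2% (9.99 to 14.9), 22.9% (17.3 to 29.6) and 21.8% in the same order. The half-site core GGTGTG, searched on both strands in the 300 bases, was found in promoters of 21.6% of EoGFP-dominated, 22.3% of BraGFP-dominated and 20.8% of all genes. The longer form AGGTGTGA, which contains the core, was found in 1.15%, 0.571% and 1.35%. The intervals of all these motif shares overlap that of all genes.

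Most unshared peaks of either protein had a peak of the other within 50 kb. Such distances depend on how many peaks the lists hold, and no expected distance was computed. The 21977 EoGFP peaks without a BraGFP overlap had a BraGFP midpoint at a median distance of 22.7 kb (quartiles 8.94 to 50.1). The 19505 BraGFP peaks without an EoGFP overlap had an EoGFP midpoint at a median of 22.2 kb (8.63 to 52.7). Of the EoGFP-only peaks, 14.4% lay within 5 kb (13.9 to 14.8), 74.9% within 50 kb and 10.4% over 100 kb away. For BraGFP-only peaks the shares were 15.0% (14.5 to 15.6), 73.6% and 11.9%. The next peak of the same list was nearer, at a median of 16.4 kb for EoGFP-only and 18.1 kb for BraGFP-only peaks. The next peak of the same list lay closer than the other protein's for 58.2% of EoGFP-only peaks (57.5 to 58.8). Among BraGFP-only peaks it did so for 54.7% (54.0 to 55.4). Unshared peaks were chosen for having no overlap with the other protein, which cuts off the shortest distances to it. Within 1 kb, 0.714% of EoGFP-only peaks had a BraGFP midpoint and 1.53% another EoGFP midpoint. For BraGFP-only peaks, 0.754% had an EoGFP midpoint and 1.72% another BraGFP midpoint. The part of that choice in the comparison with the same list was not tested.

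**Figure D4:**
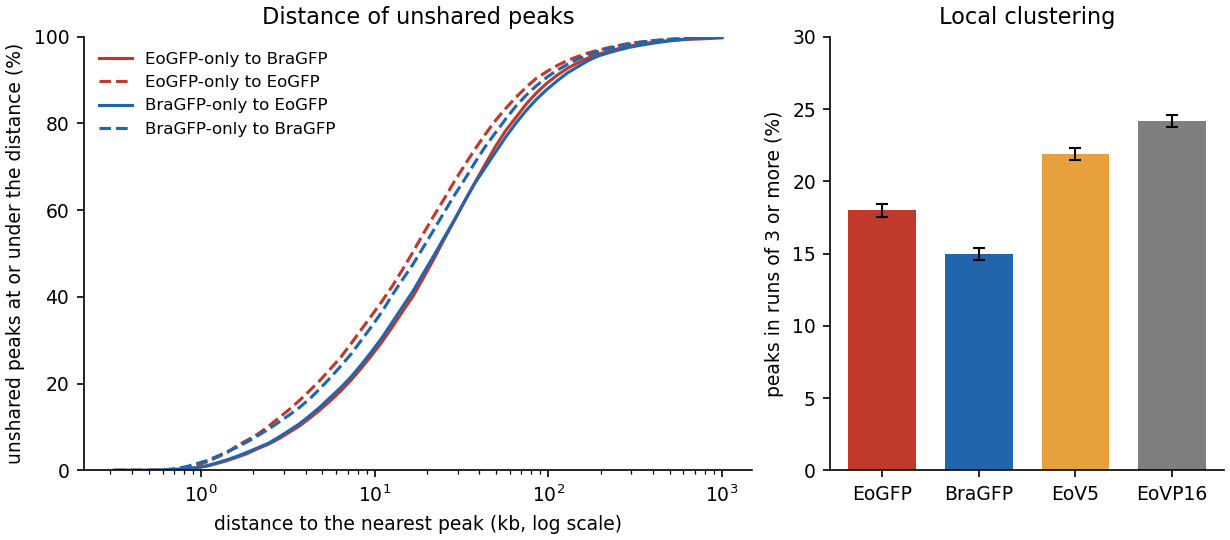
Left, cumulative share of unshared peaks (y axis, %) by distance to the nearest peak (x axis, kb, log scale), to the other protein (solid) and to the next peak of the same list (dashed). Right, share of peaks in runs of 3 or more with 95% Wilson intervals, from 14.9% in BraGFP to 24.2% in EoVP16. The solid lines run to the right of the dashed lines, with medians of 22.7 and 22.2 kb against 16.4 and 18.1 kb. Unshared peaks overlap no peak of the other protein by definition.

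Unshared peaks of 1 protein neighboured each other more often than they neighboured those of the other. With shared peaks set aside, the nearest unshared neighbour was an EoGFP-only peak for 59.4% of EoGFP-only peaks (58.7 to 60.0) and for 45.3% of BraGFP-only peaks (44.6 to 46.0), a difference of 14.0 points (13.1 to 15.0). Where the neighbour was within 5 kb, the shares were 65.0% and 40.4%, a difference of 24.6 points (22.7 to 26.5). At 5 to 50 kb the difference was 11.7 points (10.5 to 13.0), and over 50 kb 4.98 points (2.32 to 7.63). As measured, the excess of like neighbours was largest at the shortest gaps. Setting shared peaks aside takes out the closest pairs of unlike peaks by definition. The part of that choice in these differences was not tested. This measure was added after the lists were seen. Whether peaks of 1 list within 5 kb of each other are parts of 1 broad site was not tested.

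The character of unshared peaks changed with distance from the other protein. EoGFP-only peaks over 100 kb from BraGFP were narrower (median 705 bp) than those within 5 kb (836 bp), but their EoV5 peaks were taller, with a median pileup of 153 against 125 fragments. An EoV5 peak overlapped 83.2% of the distant and 78.2% of the near ones, so that near minus distant was -5.06 points (-7.14 to -2.93). EoVP16 went the other way, with 60.4% of the distant and 66.5% of the near ones, a difference of 6.08 points (3.48 to 8.67). Gene ends, taken as 1 kb around the start or end of a coding gene, held 14.0% of the distant and 21.3% of the near ones.

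BraGFP-only peaks followed the same order in width, 469 bp over 100 kb from EoGFP against 535 bp within 5 kb. EoV5 overlapped 6.78% of the distant and 11.5% of the near ones, a difference of 4.71 points (3.15 to 6.24), opposite in sign to EoGFP-only peaks. EoVP16 overlapped 9.28% and 16.8%, and gene ends held 2.33% and 8.15%. Outside coding genes altogether lay 62.6% of the distant BraGFP-only and 59.3% of the distant EoGFP-only peaks, against 38.3% and 33.0% of the near ones.

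The peaks farthest from the other protein lay on the sex chromosomes and in gene-poor stretches. The 3 farthest EoGFP-only peaks were nearest to the X-linked gene Cpxcr1, 3336, 3105 and 3088 kb from a BraGFP peak, and the next were nearest to 4931408C20Rik (2061 kb) and Gm597 (1950 kb) on chromosome 1. All 5 overlapped an EoV5 peak and 4 an EoVP16 peak. The 3 farthest BraGFP-only peaks were on the Y chromosome, nearest to Gm21170, Gm21918 and Gm21241, which belong to families of many near-identical copies, at 31041, 28757 and 27242 kb. The next were nearest to Gm10488 and Gm10096 on the X, at 3309 and 2413 kb, and none of the 5 overlapped an EoV5 or EoVP16 peak. The whole Y held 7 EoGFP and 13 BraGFP peaks, few to measure a distance by. Among autosomes the farthest BraGFP-only peak, nearest to Ncam2, was 2331 kb from an EoGFP peak.

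EoGFP peaks were more often clustered than BraGFP peaks. A run was 3 or more midpoints of a list whose gaps stayed within the distance used for stitching enhancers, and the widest gap inside a run was 12497 bp in BraGFP. Runs took in 18.0% of EoGFP peaks (17.6 to 18.4), in 1549 runs, and 14.9% of BraGFP peaks (14.5 to 15.4), in 1203 runs, a difference of 3.03 points (2.43 to 3.64). EoV5 and EoVP16, the longer lists, had 21.9% and 24.2%. The difference was 4.78 points (3.50 to 6.02) among peaks within 1 kb of gene ends and 2.87 points (2.18 to 3.57) elsewhere. With the EoGFP list cut to its widest peaks in the number of the BraGFP list it had 16.9% in runs. Shared peaks were in runs about as often as unshared ones, 18.0% and 18.0% in EoGFP and 14.7% and 15.0% in BraGFP.

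The largest EoGFP run held 15 peaks over 67.1 kb of a histone gene cluster (chr13:23518395-23585490, nearest gene H4c6), with 7 BraGFP, 11 EoV5 and 15 EoVP16 peaks in the same stretch. Another histone gene site, at H4c9, had 8 EoGFP peaks over 21.9 kb and 3 BraGFP peaks. Ciart, a circadian repressor, had a run of 9 with 1 BraGFP peak, Twnk, a mitochondrial DNA helicase, a run of 8 with 2, and Krt8, a keratin of simple epithelia, a run of 8 with 3. BraGFP runs reached 8 peaks, at Mipep, a mitochondrial peptidase, Ctdsp2, a phosphatase, Ints7, an Integrator subunit, and Rprd1b, and 7 at Fxyd6, an ion pump regulator. EoGFP had 2 to 4 peaks inside each of these BraGFP runs.

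Similar shares of runs were free of the other protein. No BraGFP midpoint lay in or within 1 such gap of 377 EoGFP runs (24.3%, 22.3 to 26.5), and no EoGFP midpoint in or within 1 such gap of 300 BraGFP runs (24.9%, 22.6 to 27.5), a difference of 0.599 points (-2.63 to 3.86). The largest such EoGFP runs were of 6 peaks, 39.8 kb from Sox1 and at Irf3, an interferon regulatory factor, and of 5 peaks at Ltbp4, Syn2, a synapsin, and Wipf2. The largest such BraGFP run was of 7 peaks over 33.9 kb inside Nhsl2. Neither EoV5 nor EoVP16 had a peak within the run, though EoVP16 had 5 within 50 kb of the gene. Runs of 6 lay at the interferon-like gene Gm13276, near Gm40365, and 89.4 kb from Qrfpr, a neuropeptide receptor, and a run of 5 lay inside Tnik. At Gm40365, beside Gm40363, EoV5 and EoVP16 had 4 and 9 peaks within the run.

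The balance of the lists differed between chromosomes. There were 0.916 BraGFP peaks per EoGFP peak over all chromosomes, 0.792 on chromosome 7 (exact binomial 95% interval 0.740 to 0.847), 1.03 on chromosome 1 (0.972 to 1.10) and 1.08 on chromosome 18 (0.993 to 1.18). Chromosome 7 held 103 EoGFP-dominated genes and 7 BraGFP-dominated genes, and chromosome 1 held 28 and 25. The X chromosome, with 333 EoGFP and 359 BraGFP peaks, held 0 and 6. Chromosome 7 has 2030 coding genes and chromosome 1 has 1204. Chromosomes 2, 4 and 11, with 1782, 1328 and 1609 coding genes, had ratios of 0.874, 0.856 and 0.849. Chromosome 12, with 679 coding genes, had 0.841 (0.777 to 0.910), and chromosome 18 has 511. A relation between the ratio and the number of genes was not tested.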

How the data were processed

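The deposited EoGFP and BraGFP lists hold positions only, 1 pooled list for 2 libraries each. In the deposited EoV5 and EoVP16 lists, signal gives each peak's pileup, its height in overlapping fragments,, and the ratio (fold enrichment) was not used; their column order is that of MACS2. Alignment and peak tools named with build mm10 were MACS2 2.1.1.20160309.4, Bowtie2 2.3.4, bedtools 2.27.0, SAMtools 1.3.1 and Picard 1.56.0, per the submitters' processing notes. Control, pooling and settings are not given in the sources used here, and depth is unknown.

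Unplaced (4 EoGFP, 7 BraGFP) and repeated entries (12 and 4) were dropped. Coding genes and promoters came from RefSeq GRCm38.p6. Peaks overlapped when sharing at least 1 bp. Computation used Python with numpy 2.4.6, pandas 2.3.3 and scipy 1.17.1, and the functions were tested on simulated peaks.

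Named genes were the 7 expressed factors, the 10 loci per factor with the largest difference, dominated list members, and genes at the farthest unshared peaks, the largest runs and, among genes under 100 kb, the 5 with most peaks of both proteins in counts within 1 of each other, 96 in all. Genes named at promoters were chosen after their values were seen. Members and the 25 lists were chosen with earlier results of these data known. Alternatives covered windows, fold, minimum peaks, wider peaks, list length, autosomes, gaps and overlap. Some results are not reported here.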

Additional observations from a re-analysis of the deposited data

How the results depend on the processing

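No paired analysis was possible because each protein has 1 pooled list, which also leaves no library to leave out. EoGFP-dominated genes exceeded BraGFP-dominated genes under each alternative run. The counts (main 900 and 226) were 139 and 113 in a 10 kb window, 1383 and 368 at 3-fold, 201 and 48 with at least 8 peaks, 443 and 109 in the wider 50% of each list, and 128 and 120 with peaks given to the nearest gene. With EoVP16 in place of EoGFP, added after seeing the data, they were 1637 and 102. Fewer peaks or a smaller window leave fewer genes able to reach the minimum. Counts stayed within 1.5 times at 100 kb, on autosomes, at equal list length and with EoV5 in place of EoGFP. Similar totals are not the same genes. With EoV5, 466 of the 900 EoGFP-dominated and 89 of the 226 BraGFP-dominated genes still met the rule. With EoVP16, 693 of the 900 and 49 of the 226 did. Hox genes dominated by BraGFP (main 10) numbered 2 in a 10 kb window and 5 at 100 kb. Median distances of EoGFP-only and BraGFP-only peaks were 21.9 and 21.4 kb edge to edge, 39.3 and 41.3 kb in the wider 50%, and 22.2 and 24.1 kb at equal list length. Shares in runs were 4.16% of EoGFP and 3.42% of BraGFP peaks with a gap of 5 kb, 39.0% and 33.3% with 25 kb, 3.14% and 2.04% for runs of 5 or more, and 8.98% and 6.60% in the wider 50%. At equal list length the EoGFP share was 16.9%. The difference in like neighbours was 15.3 points in the wider 50%. Promoter counts stayed within 1.5 times in the 3 alternatives run. Of 68 dominated genes named by the rule, 22 kept the call within 10 kb and 29 within 100 kb. The difference moved at 85 of 88 named genes within 10 kb, 68 within 100 kb and 80 in the wider 50%. The sign changed at 0 of the 68 under 4 alternatives, and differences of 0 arose for 5 at 10 kb, 1 at 100 kb and 3 in the wider 50%. The 68 were chosen for a large difference in the same peaks that these alternatives reuse. A change of sign was therefore unlikely beforehand, and its absence is a description only. The minimum pileups differ between lists and heights are not in the GFP lists, so equal heights could not be compared.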

Other observations

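Promoters of interferon-stimulated genes stood out among those with a BraGFP peak and no EoGFP peak. The 60 genes of this list were written after such names were seen among the promoters, so the count is a description with no test. Of the 47 with a promoter entry, 14 had BraGFP alone, or 29.8% (18.7 to 44.0), against 2.78% of all genes, 6 had EoGFP alone, 6 both and 21 neither. The 14 were Isg15, a ubiquitin-like modifier, Ifit1 and Oasl2, antiviral effectors, Irf7, an interferon regulatory factor, Tap1 and Psmb9 of antigen processing, the GTPases Igtp, Irgm1, Irgm2 and Gbp2, and Parp12, Isg20, Lgals3bp and Uba7. EoVP16 peaks overlapped 10 of these 14 promoters and EoV5 peaks 0, against 74.3% and 42.7% of all 487 BraGFP-only promoters. The EoVP16 count is thus near the share of that class. Neighbouring genes can share a peak, so the 14 promoters need not be 14 separate sites. Over gene windows the list was even, with a median of 2 EoGFP and 2 BraGFP peaks.

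The promoters of Isg15 and Ifit1 are shown because they carry letters of the interferon-stimulated response element, searched as GAAA, any 2 bases and GAAA again, and marked in capitals on either strand (TTTC on the other). Matches may overlap. They are the 250 bases before the RefSeq start (GRCm38.p6), 5′ to 3′ on the gene's strand.
Isg15, chr4:156200819-156201068, minus strand: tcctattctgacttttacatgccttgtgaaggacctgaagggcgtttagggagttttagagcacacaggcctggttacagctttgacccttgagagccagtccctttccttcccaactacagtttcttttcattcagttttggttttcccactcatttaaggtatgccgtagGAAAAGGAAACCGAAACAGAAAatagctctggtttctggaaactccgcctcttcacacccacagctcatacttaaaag
Ifit1, chr19:34640639-34640888, plus strand: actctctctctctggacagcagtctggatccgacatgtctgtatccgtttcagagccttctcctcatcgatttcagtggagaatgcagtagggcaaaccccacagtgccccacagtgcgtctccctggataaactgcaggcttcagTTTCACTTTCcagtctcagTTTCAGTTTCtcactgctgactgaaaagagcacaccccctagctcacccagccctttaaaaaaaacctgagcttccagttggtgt
The BraGFP peaks were 391 bp wide at Isg15 and 637 bp wide at Ifit1, and an EoVP16 peak overlapped both promoters. In the 300 bases of the promoter entries, the letters were found in 6 of the 14 (42.9%) and in 15 of the other 33 listed genes (45.5%). Over all genes they were found in 6.37% of all promoters with BraGFP alone (4.52 to 8.89), 3.27% with EoGFP alone (2.77 to 3.87), 2.95% with both and 4.44% with neither. RNA of these genes in the same cells was not analysed here.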
